A study of Homo sapiens with 4 samples.

Results

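The HLA class I antigen presentation genes were followed in wild-type and paclitaxel-resistant anaplastic thyroid cancer (ATC) cells. They were taken by gene name: the heavy chains HLA-B, HLA-C, HLA-E and HLA-F, the light chain B2M, the peptide transporter genes TAP1 and TAP2, the loading factor TAPBP, and the transcriptional activator NLRC5. These are 9 of the 26485 gene names in each deposited table, and all 9 were compared in each cell line. SW1736 and 8505C are established human ATC cell lines, and their untreated parental cells are called wt. SW1736-PTX and 8505C-PTX were derived by raising paclitaxel, a taxane that stabilizes microtubules, from 1 nM to 1.5 µM over 6 months, and were then kept in 1.5 µM of the drug. The sources used here do not say whether a PTX line is a pool or a clone. One mRNA library was sequenced per condition, 4 in all, so no difference could be set against the spread between cultures, and neither a p-value nor an SD is given. Levels are FPKM, which are aligned fragments per kilobase of gene, scaled to the depth of the library, and can be compared between genes. Each change is log2((PTX + 0.1)/(wt + 0.1)) of FPKM. Folds and counting errors are those of the FPKM ratio without the 0.1, so a fold and its log2 change can differ at low levels. Genes above 0.5 FPKM in 1 or both libraries of a pair were compared. A gene was called higher or lower beyond a log2 change of 1.5 in that direction. Positions are on hg38, and exons are those of the MANE transcript in GENCODE release 44.

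HLA class I molecules carry short peptides from proteins made inside the cell to the cell surface, where CD8+ T cells and natural killer cells read them. A heavy chain folds with β2-microglobulin (B2M) in the endoplasmic reticulum, and the TAP1-TAP2 transporter pumps in peptides cut by the proteasome, while tapasin (TAPBP) bridges the transporter and the empty heavy chain. NLRC5 switches on the heavy chain genes and several of their partners, and many tumours lose parts of this pathway.

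The 4 libraries held between 43.5 and 57.9 M aligned reads, with more in the PTX library of each line. The library labelled SW1736-PTX was closer to both 8505C libraries than to its own wt library: over 14692 genes, Pearson's r of log2(FPKM + 0.1) was 0.933 with 8505C-PTX, 0.873 with 8505C wt and 0.767 with SW1736 wt. The lineage factor PAX8 was at 38.2 FPKM in SW1736 wt and at most 0.206 in the other 3 libraries, the keratin KRT19 at 266 and at most 0.535, and NKX2-1 was listed at 0 in SW1736 wt and lay between 30.5 and 39.0 elsewhere. Because these levels go against the label, the SW1736 change of each pathway gene and of each named gene called there is given again with 8505C wt in place of SW1736 wt, a pair that shares its wt library with the 8505C comparison. PTX cells of SW1736 stands throughout for the library labelled SW1736-PTX. The thyroid differentiation genes TSHR and SLC5A5 were listed at 0 in all 4 libraries and TG was at most 0.00586 FPKM. Of 10 leukocyte markers, CD14 and CORO1A were the 2 above 0.5 FPKM in each library, the summed level lay between 1.60 and 5.40 FPKM, and CD3E and MS4A1 were listed at 0 in all 4. Of 3 endothelial markers, CDH5 was at 55.9 FPKM in 8505C wt and 4.53 in 8505C-PTX, and the other markers were at most 0.281 in every library. The part of these cell markers in the changes reported here was not tested.

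Over the 9 genes, 4 were called higher in SW1736 (HLA-B, HLA-E, HLA-F and TAP1), beside 15.7% of the 14202 genes compared, and 0 were called lower, beside 10.2%. In 8505C, 3 were called higher (HLA-B, HLA-C and HLA-F), beside 15.0% of 13794 genes, and TAP2 was called lower, beside 5.89%. For SW1736-PTX over 8505C wt, 4 were called higher (HLA-B, HLA-C, HLA-F and TAP1), beside 15.1% of 13824 genes, and 0 lower, beside 5.23%. In each of the 3 pairs 8 of the 9 genes lay above 0 and TAP2 below, while 50.3% of all genes compared lay above 0 in SW1736, 54.3% in 8505C and 54.1% in the pair with 8505C wt. The median log2 change of the 9 genes was 1.21 in SW1736 beside 0.01 for all genes, 1.30 in 8505C beside 0.11, and 1.39 for SW1736-PTX over 8505C wt beside 0.10. HLA-B and HLA-F were called in each of the 3 pairs. These pairs share libraries, and the share of all genes called in all 3 is not given here. Without HLA-F, whose change in SW1736 rests on a listed 0, the SW1736 median was 1.00. In bulk RNA, fewer cells carrying a transcript and less of it per cell cannot be told apart.

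**Figure D1:**
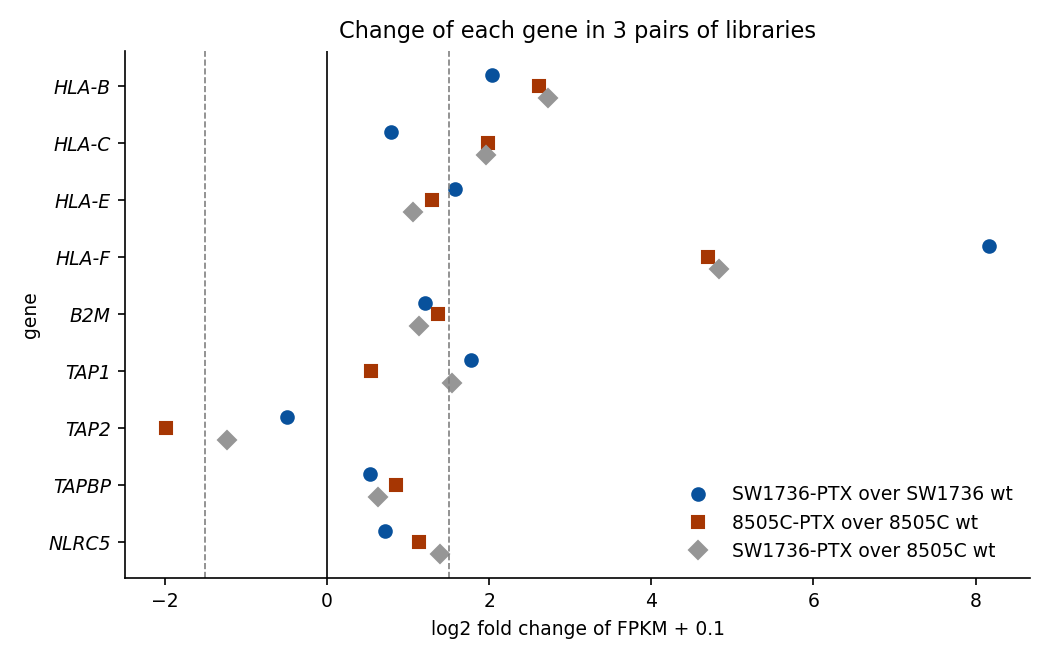
Log2 change of each class I pathway gene for SW1736-PTX over SW1736 wt (circles), 8505C-PTX over 8505C wt (squares) and SW1736-PTX over 8505C wt (diamonds), each from 1 library over 1 library, with dashed lines at the limits of 1.5 and -1.5. HLA-F lies furthest to the right, its SW1736 value of 8.16 being set by the pseudocount, and TAP2 is left of 0 in all 3 pairs.

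All 4 heavy chain genes were higher in the PTX library than in the wt library of each line, and HLA-F, a class I chain of restricted expression that also reaches the surface without peptide, stood out from the rest. HLA-F (chr6:29723340-29727296, plus strand, 7 exons) was listed at 0 in wt and read 28.5 FPKM in PTX cells of SW1736, and read 0.908 and 26.1 FPKM in those of 8505C. The wt and PTX libraries were therefore far apart in both lines, while the PTX libraries were close to each other. In 8505C, the difference was 28.76-fold without the pseudocount, and the log2 change with it was 4.70. The counting error of the log2 ratio was 0.37 (95% half-width, from about 58 and 2070 reads). No fold is given for SW1736, since the value of 8.16 in the plots is set by the pseudocount. An exact 0 can be a failed estimate: 26 genes above 10 FPKM in the other 3 libraries were listed at 0 in SW1736 wt, and 0 genes in each other library. A gene at 0 in both wt libraries cannot enter this count. The study's lists of top genes give SLC25A6 and CD99 at 0 in both wt lines, so failed zeros in 8505C wt are not excluded. Against 8505C wt, the library labelled SW1736-PTX was 31.41-fold higher in HLA-F, and the log2 change with the pseudocount was 4.83.

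HLA-B, one of the classical and most variable heavy chains (chr6:31353872-31357212, minus strand, 8 exons), went from 70.9 FPKM in wt to 291 in PTX cells of SW1736 and from 44.3 to 271 in 8505C. It was called in both lines, 4.11-fold higher in SW1736 (log2 2.04) and 6.13-fold higher in 8505C (log2 2.61). Against 8505C wt, SW1736-PTX was 6.58-fold higher (log2 2.72). Among all genes of the library, HLA-B moved from rank 1095 to rank 198 by FPKM in the SW1736 pair and from rank 1788 to rank 203 in 8505C.

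HLA-C, the classical chain that is also a main ligand of killer immunoglobulin-like receptors (chr6:31268749-31272136, minus strand, 8 exons), went from 218 FPKM in wt to 378 in PTX cells of SW1736 and from 97.3 to 386 in 8505C. The PTX libraries were nearly equal, and the wt libraries were not: 8505C wt was at 0.45 times SW1736 wt (log2 -1.16). The change passed the limit in 8505C (3.96-fold, log2 1.99) and not in SW1736 (1.73-fold, log2 0.79). With 8505C wt in place of SW1736 wt it passed the limit (3.88-fold, log2 1.96), so the call in SW1736 depended on which wt library was used.

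HLA-E, which displays leader peptides of other class I chains to the natural killer receptor CD94-NKG2A (chr6:30489406-30494205, plus strand, 8 exons), went from 54.3 FPKM in wt to 162 in PTX cells of SW1736 and from 77.7 to 191 in 8505C. It was 2.99-fold higher in SW1736 (log2 1.58), just past the limit, and 2.46-fold higher in 8505C (log2 1.30), just short of it. With 8505C wt as the wt library the SW1736-PTX value was 2.09-fold higher (log2 1.06) and no longer called. HLA-B exceeded HLA-E in both PTX libraries and in SW1736 wt, whereas in 8505C wt HLA-E was 1.75 times HLA-B.

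The balance between the classical chains moved as well. The HLA-B level went from 0.325 to 0.772 times that of HLA-C in SW1736 and from 0.455 to 0.704 times in 8505C. Both PTX libraries thus lay above both wt libraries in this ratio. Class I genes are close copies of each other, and short reads shared between them could be assigned to either gene. Single heavy chain values are therefore less certain than those of B2M or TAP1. Whether shared reads were handled alike in every library is not given in the sources used here. Alternate-haplotype rows, of which there were 42 for 8 of the 9 genes, were at 0 in every library, so each level came from the primary chromosome row.

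B2M, the light chain that every classical and most class I-like heavy chains need for folding (chr15:44711487-44718159, plus strand, 4 exons), was the highest of the 9 genes in all 4 libraries. Its level went from 365 FPKM in wt to 843 in PTX cells of SW1736 and from 383 to 988 in 8505C. The wt libraries were almost alike and both PTX libraries were above both wt libraries. The difference was 2.31-fold in SW1736 (log2 1.21) and 2.58-fold in 8505C (log2 1.37), under the limit in each. It was 2.20-fold (log2 1.14) for SW1736-PTX over 8505C wt. Since B2M lies on chromosome 15, outside the major histocompatibility complex (MHC), it was the one structural chain of the complex measured at another locus. The ratio of B2M to HLA-B went from 5.15 in wt to 2.89 in PTX cells of SW1736 and from 8.64 to 3.64 in 8505C, lower in each PTX library than in its wt library. The ratio of B2M to HLA-C had no such common direction, going from 1.67 to 2.23 in SW1736 and from 3.93 to 2.56 in 8505C.

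**Figure D2:**
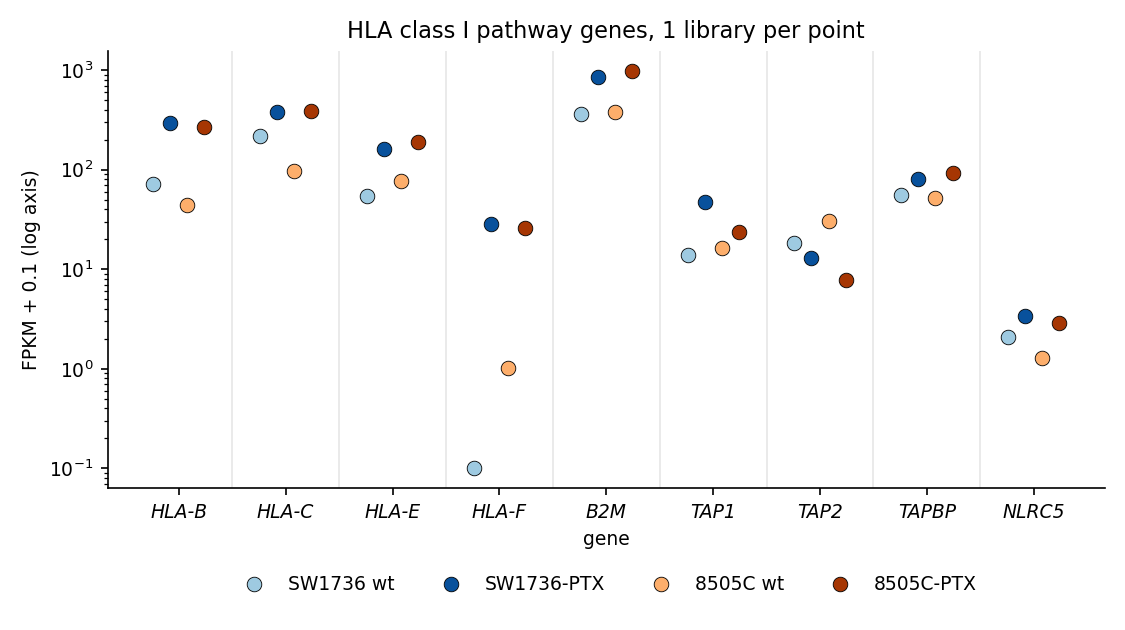
Level of each class I pathway gene in the 4 libraries, as FPKM + 0.1 on a log axis with 1 point per library and no error bar because there is 1 library per condition. The dark PTX points lie above the light wt points of the same line for 8 genes, with HLA-F at 28.5 and 26.1 FPKM in PTX against 0 and 0.908 in wt, and below them for TAP2.

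The transporter genes parted. TAP1 encodes one chain of the peptide pump and TAP2 the other, and the pump needs both. TAP1 (chr6:32845209-32853971, minus strand, 11 exons) went from 13.7 FPKM in wt to 47.2 in PTX cells of SW1736 and from 16.2 to 23.6 in 8505C. It was called higher in SW1736 (3.45-fold, log2 1.78) and not in 8505C (1.46-fold, log2 0.54). Against 8505C wt, SW1736-PTX was 2.92-fold higher (log2 1.54). Of the 9 genes, TAP1 differed most between the PTX libraries, with 8505C-PTX at 0.50 times SW1736-PTX (log2 -0.99).

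TAP2 (chr6:32821833-32838823, minus strand, 12 exons) went from 18.3 FPKM in wt to 13.0 in PTX cells of SW1736 and from 30.6 to 7.65 in 8505C. It was the one gene of the 9 below 0 in both lines. The PTX level was 0.25 times the wt level in 8505C (log2 -1.98), which was called lower, and 0.71 times in SW1736 (log2 -0.49), which was not. Against 8505C wt, SW1736-PTX was at 0.42 times (log2 -1.23). In 8505C, 2.8% of all genes compared had a lower log2 change than TAP2. The ratio of TAP1 to TAP2 went from 0.749 in wt to 3.64 in PTX cells of SW1736 and from 0.529 to 3.09 in 8505C, so TAP2 was the higher of the pair in both wt libraries and the lower in both PTX libraries. Taken from read coverage in place of FPKM, this ratio was 0.885 and 4.45 in SW1736 and 0.671 and 3.38 in 8505C.

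The TAP genes share a stretch of the MHC with the immunoproteasome subunits PSMB8 and PSMB9, in the order TAP2, PSMB8, TAP1, PSMB9, from position 32821833 to 32859851 of chromosome 6. By their RefSeq starts, PSMB9 begins 488 bases from TAP1 on the opposite strand, so that the pair are transcribed away from each other. Its level went from 21.0 FPKM in wt to 77.9 in PTX cells of SW1736 and from 19.5 to 39.3 in 8505C, a log2 change of 1.89 in SW1736 and 1.01 in 8505C. The ratio of TAP1 to PSMB9 stayed between 0.601 and 0.829 over the 4 libraries. PSMB8, which lies between the TAP genes, went from 18.9 to 41.8 FPKM in the SW1736 pair (log2 1.14) and from 26.4 to 38.4 in 8505C (log2 0.54). Of these 4 genes TAP2 alone was lower in the PTX library of both lines. PSMB8-AS1 overlaps TAP1 on the opposite strand and was at most 4.13 FPKM, and HLA-F-AS1 overlaps HLA-F and was at most 3.03. Whether strand was used in counting is not given in the sources used here, so reads of the overlapping parts cannot be told apart.

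TAPBP, or tapasin, holds the empty heavy chain beside the transporter (chr6:33299695-33314387, minus strand, 8 exons). It went from 55.1 FPKM in wt to 79.8 in PTX cells of SW1736 and from 51.6 to 92.8 in 8505C. Its difference of 1.45-fold in SW1736 (log2 0.53) was the smallest increase there, and it was 1.80-fold in 8505C (log2 0.85). Against 8505C wt, SW1736-PTX was 1.55-fold higher (log2 0.63).

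NLRC5, the activator of class I transcription (chr16:57017074-57083524, plus strand, 49 exons), was low in every library. It went from 1.97 FPKM in wt to 3.30 in PTX cells of SW1736 and from 1.19 to 2.76 in 8505C. Neither line passed the limit, with 1.67-fold in SW1736 (log2 0.71, counting error 0.14) and 2.31-fold in 8505C (log2 1.14, counting error 0.18). Against 8505C wt the library labelled SW1736-PTX was 2.76-fold higher (log2 1.39). Both PTX libraries lay above both wt libraries, on between about 352 and 1294 reads. CIITA, the class II counterpart of NLRC5, was at most 0.0233 FPKM.

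Promoter sequence was available for 7 of the 9 genes, in the RefSeq table for GRCh38.p14, as 250 bases before and 50 after the start. Exact matches to 4 motifs known from class I promoters were counted on both strands. The core of the interferon-stimulated response element (ISRE; GAAA, any 2 bases, GAAA) was found in 5 of the 7 windows, those of B2M, HLA-F, TAP1, TAP2 and TAPBP, and in 3.57% of all 35116 promoters of the table. The NF-κB consensus was found in 5 of the 7 (B2M, HLA-B, HLA-C, TAP1 and TAPBP) and in 5.91% of all promoters. CCAAT, the Y box, was in 5 of the 7 (B2M, HLA-B, HLA-C, HLA-F and TAP1) against 34.6% of all, and TGACG, part of the X2 box, was in 4 of the 7 (B2M, HLA-B, HLA-C and TAP2) against 24.6% of all. A match is only a run of letters, and binding was not measured. Exact matching misses variant forms of a motif, so a window without a match can still hold such a site. Given next are the 200 bases before the start of the chain with the largest change, HLA-F, of HLA-B and B2M, and of the transporter genes that moved apart, 5′ to 3′ on the gene's strand. Capitals mark every match of the 4 motifs on either strand within these bases. Overlapping ISRE matches in B2M and TAP1, and overlapping NF-κB matches in HLA-B, run together. The windows are chr6:29723234-29723433 (plus strand) for HLA-F, chr6:31357180-31357379 (minus) for HLA-B, chr15:44711317-44711516 (plus) for B2M, chr6:32853705-32853904 (minus) for TAP1 and chr6:32838740-32838939 (minus) for TAP2. They end at the RefSeq start, which can differ from the gene bounds given above, and the Y box match of TAP1 (-249 to -245) lies before the bases shown. A further NF-κB match of TAP1, on the opposite strand from base 22 to 31 after the start, lies beyond them.
HLA-F: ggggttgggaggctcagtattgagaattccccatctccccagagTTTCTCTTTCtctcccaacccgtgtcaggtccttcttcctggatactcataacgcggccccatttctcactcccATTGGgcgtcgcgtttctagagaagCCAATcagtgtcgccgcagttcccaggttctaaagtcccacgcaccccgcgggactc
HLA-B: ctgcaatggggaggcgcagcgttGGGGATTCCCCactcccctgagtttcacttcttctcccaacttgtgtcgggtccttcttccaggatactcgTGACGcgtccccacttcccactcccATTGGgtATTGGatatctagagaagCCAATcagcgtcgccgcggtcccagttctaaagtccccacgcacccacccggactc
B2M: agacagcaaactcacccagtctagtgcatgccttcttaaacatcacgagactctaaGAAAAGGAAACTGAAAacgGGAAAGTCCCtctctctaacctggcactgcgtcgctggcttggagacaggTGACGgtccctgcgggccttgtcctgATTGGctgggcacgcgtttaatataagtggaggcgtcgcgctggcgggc
TAP1: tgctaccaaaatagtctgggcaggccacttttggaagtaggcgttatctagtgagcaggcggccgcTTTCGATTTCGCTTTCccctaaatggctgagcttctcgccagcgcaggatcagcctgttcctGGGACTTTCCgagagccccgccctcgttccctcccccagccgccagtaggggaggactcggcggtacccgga
TAP2: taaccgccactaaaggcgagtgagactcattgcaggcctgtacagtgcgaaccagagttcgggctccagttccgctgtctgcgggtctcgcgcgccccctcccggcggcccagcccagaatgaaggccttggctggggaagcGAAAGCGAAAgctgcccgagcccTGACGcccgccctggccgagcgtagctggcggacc
HLA-B and HLA-F both hold CCAAT on the gene's own strand at nearly the same distance, from base -56 in HLA-B and -57 in HLA-F. Further upstream, HLA-F has an exact ISRE core match from -156 to -147 and HLA-B exact NF-κB matches from -177 to -167. TAP1 and TAP2, whose changes lay on opposite sides of 0 in both lines, both hold an ISRE core, TAP1 on the strand opposite to the gene and TAP2 on the gene's own strand. TAP2 lacks the NF-κB and Y box letters that the TAP1 window holds. Nothing about the factors that bind these letters was measured here.

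The wt and PTX libraries of the lines were also set against each other. Between the wt libraries the median absolute log2 difference of the 9 genes was 0.68, and between the PTX libraries it was 0.23, beside 0.53 and 0.30 for the 12751 genes compared in both. The 4 heavy chains and NLRC5 were closer in the PTX libraries, that is 5 of the 9 genes (55.6%) beside 66.5% of all genes. TAP1, TAP2, TAPBP and B2M were further apart. The higher line changed for 5 genes between the wt and the PTX libraries. As the log2 ratio of 8505C to SW1736, TAP2 went from 0.74 to -0.75, TAP1 from 0.24 to -0.99, TAPBP from -0.10 to 0.22, HLA-C from -1.16 to 0.03 and HLA-F from 3.33, which rests on a listed 0, to -0.13. The likeness of the library labelled SW1736-PTX to 8505C-PTX over all genes stands beside these values, and its part in them was not tested.

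By level, B2M was the first and HLA-C the second of the 9 genes in all 4 libraries. HLA-F was the lowest and NLRC5 next to it in both wt libraries, whereas in both PTX libraries NLRC5 was the lowest and TAP2 next. The order of HLA-B, HLA-E and TAPBP differed between the wt libraries, and was the same in the PTX libraries.

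**Figure D3:**
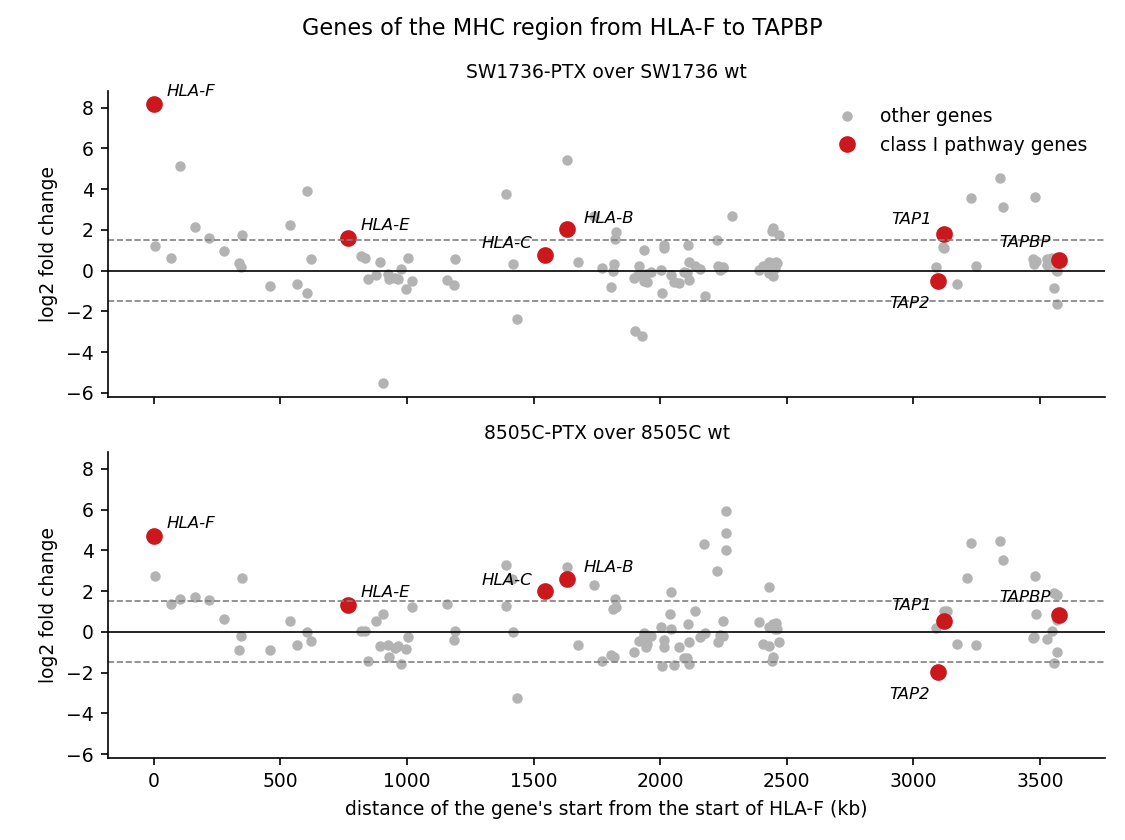
Log2 change of each compared gene between HLA-F and TAPBP on chromosome 6 against the distance of its start from that of HLA-F in kb, for SW1736-PTX over SW1736 wt (upper panel) and 8505C-PTX over 8505C wt (lower panel), with class I pathway genes in red. The red points of HLA-F, HLA-B, HLA-E, HLA-C, TAP1 and TAP2 are past the dashed limits of 1.5 and -1.5 in at least 1 panel, among grey neighbours on either side of 0.

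Of the 9 genes, 7 lie within the 3.59 Mb of the MHC from HLA-F to TAPBP. The other genes of this span were spread around 0. In SW1736, 20 of the 108 others compared were called higher (18.5%) and 5 lower (4.63%), with a median of 0.24, while 4 of the 7 pathway genes were called higher and their median was 1.58. In 8505C, 24 of 111 others were called higher (21.6%) and 6 lower (5.41%), with a median of 0.02, while 3 of the 7 were called higher, 1 lower, and their median was 1.30.

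Genes that work with the class I chains were read from 5 lists. Peptide loading and trimming held 8 genes, of which 2 were called higher in SW1736 and 0 lower (median 0.84), beside 15.7% and 10.2% of all genes, and 0 in either direction in 8505C (median -0.03), beside 15.0% and 5.89%. TAPBPL, the tapasin-related peptide editor, went from 1.65 FPKM in wt to 7.51 in PTX cells of SW1736 and from 1.71 to 4.53 in 8505C, called in SW1736 (log2 2.12, and 2.07 against 8505C wt) and just short of the limit in 8505C (log2 1.35). ERAP2, an aminopeptidase that trims peptides in the endoplasmic reticulum, was the other gene called in SW1736, from 13.6 to 48.8 FPKM (log2 1.84, but 1.01 and uncalled against 8505C wt), and went from 24.1 to 39.5 in 8505C (log2 0.71). Calreticulin (CALR), the chaperone of the loading complex, was lower in both PTX libraries and not called, going from 861 to 514 FPKM in the SW1736 pair and from 564 to 472 in 8505C. UGGT1, which sends misfolded glycoproteins back to calreticulin, went from 16.4 to 14.8 FPKM and from 17.8 to 10.9, also not called.

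The proteasome list set the immunoproteasome subunits PSMB8, PSMB9 and PSMB10 and the activator subunits PSME1 and PSME2 beside the constitutive subunits PSMB5, PSMB6 and PSMB7. Of these 8 genes, PSMB9 alone was called, in SW1736 (also against 8505C wt, log2 1.99), beside 15.7% of all genes, and the median was 0.21 there and 0.20 in 8505C. PSME1 went from 86.9 to 181 FPKM in the SW1736 pair (log2 1.06) and from 68.2 to 146 in 8505C (log2 1.10), much the same in both lines and under the limit. The constitutive subunits PSMB5 and PSMB7 were below 0 in both lines without a call, PSMB7 going from 225 to 218 FPKM in the SW1736 pair and from 220 to 98.0 in 8505C, and PSMB5 from 88.4 to 77.2 and from 101 to 69.6. PSMB8 and PSMB10, which take the places of PSMB5 and PSMB7 in the immunoproteasome, were above 0 in both lines, PSMB10 at log2 0.22 in SW1736 and 0.60 in 8505C. The list did not divide cleanly by type of subunit, since the constitutive PSMB6 was at log2 0.21 in SW1736 and -0.69 in 8505C and the activator PSME2 at 0.17 and -0.14.

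Of 24 interferon and class I regulators, 23 were compared, and 0 were called higher and 3 lower in SW1736 (median -0.38), beside 15.7% and 10.2% of all genes. In 8505C, 2 were called higher and 3 lower (median -0.03), beside 15.0% and 5.89%. IRF9, the DNA-binding part of the factor that answers type I interferon, went from 4.89 to 11.8 FPKM in the SW1736 pair and from 4.02 to 22.5 in 8505C. It was called in 8505C (log2 2.45) and not in SW1736 (log2 1.25), where it was called only against 8505C wt (log2 1.52). Its partner STAT2 was called higher in 8505C (log2 1.64) and was at log2 -0.38 in SW1736 (0.91 against 8505C wt). JAK2, the kinase of the interferon-γ receptor, went from 3.79 to 1.29 FPKM in SW1736, just inside the limit (log2 -1.49), and from 3.70 to 1.11 in 8505C, where it was called lower (log2 -1.65). The 3 genes called lower in SW1736 were IFNGR2 (log2 -2.00) and IFNAR1 (log2 -1.53), chains of the interferon-γ and type I interferon receptors, and RFXAP (log2 -1.57), a subunit of the factor that binds the X box of HLA promoters. Against 8505C wt, IFNAR1 was called (log2 -1.54), and IFNGR2 (log2 -1.35) and RFXAP (log2 -1.17) were not. In 8505C, EZH2 (log2 -1.53) and EED (log2 -1.52), subunits of the repressive Polycomb complex PRC2, were called lower beside JAK2. In SW1736 neither was called, EZH2 at log2 -0.27 (0.94 against 8505C wt) and EED at -0.92 (-1.22 against 8505C wt). A further PRC2 subunit of the list, SUZ12, was called in neither line (log2 -0.38 in SW1736 and -0.92 in 8505C). With a pseudocount of 1, of these called genes only IFNGR2 in SW1736 and IRF9 in 8505C were still past the limit, and RFXAP was at -1.14, IFNAR1 at -1.34, STAT2 at 1.48, JAK2 at -1.15, EZH2 at -1.41 and EED at -1.40.

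Of 17 other class I-like chains, 14 were compared in SW1736, with 6 called higher and 3 lower (median 0.79), beside 15.7% and 10.2% of all genes, and 13 in 8505C, with 7 called higher and 1 lower (median 1.56), beside 15.0% and 5.89%. The non-classical chain HLA-G, best known from the placenta, was listed at 0 in wt and read 3.42 FPKM in PTX cells of SW1736, and read 1.24 and 3.97 FPKM in those of 8505C (log2 1.60), called in both lines. The HLA-H pseudogene, a near copy of the classical genes, went from 8.35 to 37.5 FPKM in the SW1736 pair (log2 2.16) and from 11.7 to 38.3 in 8505C (log2 1.70). CD1D, which presents lipids to natural killer T cells, was listed at 0 in wt and read 0.633 FPKM in PTX cells of SW1736, and went from 0.0486 to 2.34 in 8505C (log2 4.04). RAET1E, a ligand of the activating receptor NKG2D, went from 0.0232 to 1.37 FPKM in the SW1736 pair (log2 3.57) and from 0.223 to 2.30 in 8505C (log2 2.89). These were called higher in both lines, and against 8505C wt SW1736-PTX was called higher in HLA-H (log2 1.67), CD1D (log2 2.30) and RAET1E (log2 2.18) and not in HLA-G (log2 1.39). At these low levels the calls depended on the pseudocount. With a pseudocount of 1, CD1D (log2 0.71) and RAET1E (log2 1.21) lost the call in SW1736 and HLA-G (log2 1.15) and RAET1E (log2 1.43) in 8505C, and HLA-G in 8505C also lost it when centred on all genes (log2 1.49). The other direction was shown by FCGRT, the heavy chain of the neonatal Fc receptor, which pairs with B2M and binds antibody in place of peptide. It went from 6.29 to 0.0243 FPKM in SW1736 (log2 -5.68, and -2.76 against 8505C wt) and from 0.744 to 0.0393 in 8505C (log2 -2.60), and was called lower in both lines. With a pseudocount of 1 the change was -2.83 in SW1736 and -0.75, no longer called, in 8505C. HFE, the B2M-bound regulator of iron uptake, went from 4.21 to 0.201 FPKM in SW1736 (log2 -3.84). It was below the minimum in both libraries of the pair with 8505C wt (log2 -0.84) and of the 8505C pair, and so was compared in neither.

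The last list held 3 ligands that cells show beside class I. CD274 (PD-L1), the ligand of the T cell checkpoint PD-1, went from 3.86 FPKM in wt to 10.9 in PTX cells of SW1736 and from 70.1 to 9.59 in 8505C. It was called lower in 8505C (log2 -2.86) and lay just under the upper limit in SW1736 (log2 1.48), and was lower in SW1736-PTX than in 8505C wt (log2 -2.67). PDCD1LG2, the other PD-1 ligand, went from 3.62 to 1.62 FPKM in the SW1736 pair (log2 -1.11) and from 3.10 to 0.520 in 8505C, where it was called lower (log2 -2.37, but -1.43 with a pseudocount of 1). CD47, the signal that restrains macrophages, went from 5.61 to 19.2 FPKM in SW1736, where it was called higher (log2 1.76, but 0.47 against 8505C wt), and from 13.8 to 25.0 in 8505C (log2 0.85). Over the 5 lists with 60 genes, 10 of the 56 compared were called higher and 6 lower in SW1736, beside 15.7% and 10.2% of all genes, and 9 of 55 higher and 6 lower in 8505C, beside 15.0% and 5.89%. The numbers called higher were thus near the share of all genes. Of these, 5 were called higher in both lines, among them HLA-G, HLA-H, CD1D and RAET1E, and 1 lower, FCGRT. The share of all genes called in both lines is not given here, so these numbers are not read as a result.

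**Figure D4:**
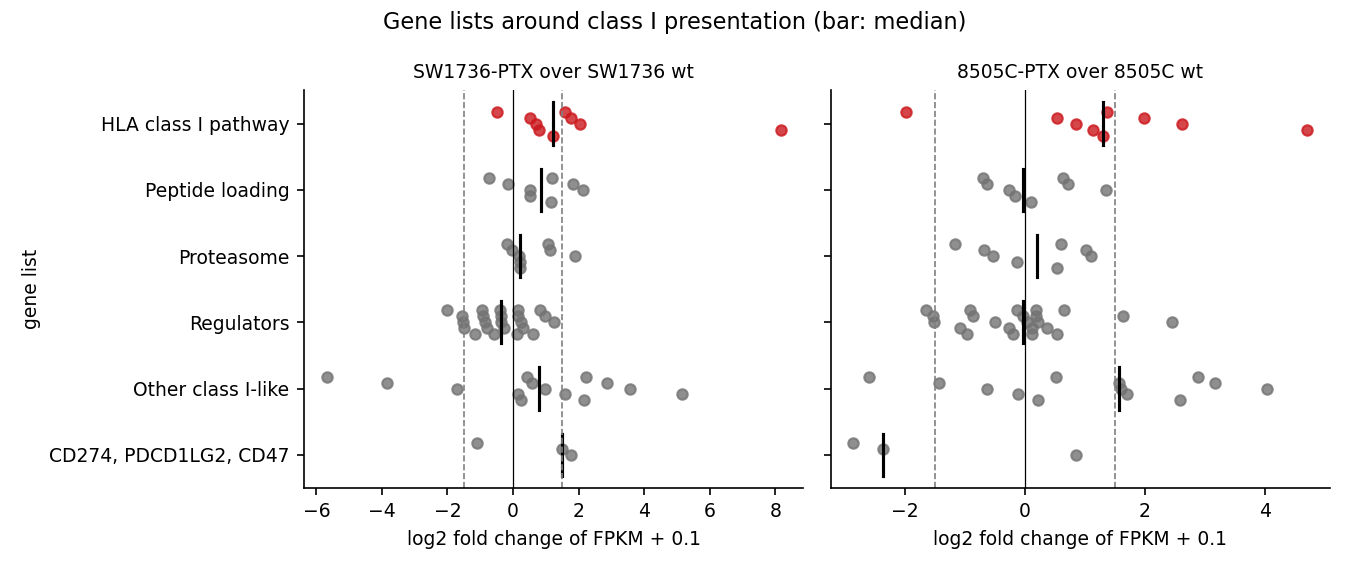
Log2 change of every compared gene in the class I pathway (red) and in the 5 lists around it (grey), for SW1736-PTX over SW1736 wt (left) and 8505C-PTX over 8505C wt (right, on its own axis range), with black bars at each median and dashed lines at 1.5 and -1.5. The class I pathway medians are 1.21 and 1.30, and those of the interferon and class I regulators are -0.38 and -0.03.

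The genes whose levels followed the mean of the 9 most closely over the 4 libraries were ranked by the root mean square (rms) difference of log2(FPKM + 0.1) after centring. On this centred log2 scale, the mean profile of the 9 genes went from -0.93 in wt to 0.88 in PTX cells of SW1736 and from -0.67 to 0.72 in 8505C. HLA-F, with its listed 0, carried much of this profile, and without it the mean of the other 8 genes went from -0.43 to 0.59 in SW1736 and from -0.56 to 0.41 in 8505C. With all 9 genes, the 5 nearest of 14683 genes were SLC12A5 (rms 0.035), TRIM65 (0.038), CTBS (0.046), C19orf54 (0.053) and CT62 (0.065). TRIM65, for example, went from 6.85 to 25.5 FPKM in the SW1736 pair and from 8.77 to 22.0 in 8505C. Without HLA-F the 5 nearest were SRD5A1 (rms 0.043), PLEKHH3 (0.043), RALGDS (0.046), AARS (0.050) and CHMP2A (0.052), and 0 genes were on both lists. With 4 libraries such likeness is common, and 225 genes lay within an rms difference of 0.25 of the 9-gene mean and 656 of the 8-gene mean.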

How the data were processed

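RNA of the 4 cultures was made into libraries with the Universal Plus mRNA-Seq kit and read as single-end reads of 75 bp. The authors used bcl2fastq 2.20, masked adapters with Cutadapt, trimmed with ERNE, aligned with STAR to hg38 and quantified genes with StringTie. The versions of ERNE, STAR and StringTie and the annotation are not given in the sources used here. The tables deposited by the authors give for each gene the read coverage (not scaled for depth), the FPKM and the TPM, and hold no counts, so no count model was used. Here the FPKM of all rows of a gene name were summed, and the pseudocount was 0.1. The FPKM limit and the log2 limit of 1.5 are the study's. The aligned reads came from the ratio of coverage to FPKM, and the reads of a gene from its FPKM and the length of its MANE transcript in GENCODE release 44. Counting errors are 95% half-widths and cover counting only. The calls were tested on simulated counts of well-expressed genes with large changes and no spread between cultures. Low levels and changes near the limit were not covered. Motifs were searched in RefSeq promoters of GRCh38.p14.

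The genes and lists were chosen with earlier results of these data known. From each list the text names the genes called in both lines in 1 direction and those of largest and smallest change in each line, and some genes of the lists are not reported here. ERAP2, IFNAR1, RFXAP, STAT2, EZH2, EED, SUZ12, HFE, PSMB6, PSMB8, PSMB10, PSME2 and CIITA lie outside the rule and were named after their values were seen. The alternatives changed the pseudocount (0.01 and 1), the FPKM minimum, the unit, the centring, the rows used, the threshold (1 and 2) and the wt library. Coverage divided by the aligned bases, the profile without HLA-F, and all alternatives for the lists and between the lines, were added after the data were seen. The scripts ran on Python 3.11.15 with pandas 2.3.3, NumPy 2.4.6 and, for plots, matplotlib 3.10.9.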

Additional observations from a re-analysis of the deposited data

Results flagged for a closer look

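The log2 changes of 3 genes of the lists had opposite signs in the lines, and in each case the difference between the lines was not tested, with 1 library per condition. IFNGR2, a chain of the interferon-γ receptor, was at -2.00 in SW1736 (31.8 to 7.90 FPKM) and 0.04 in 8505C (20.3 to 20.9 FPKM), and at -1.35 for SW1736-PTX over 8505C wt. STAT2, a partner of IRF9, was at -0.38 in SW1736 (11.4 to 8.74 FPKM) and 1.64 in 8505C (4.59 to 14.5 FPKM). CD274, the PD-1 ligand, was at 1.48 in SW1736 (3.86 to 10.9 FPKM) and -2.86 in 8505C (70.1 to 9.59 FPKM). With 8505C wt in place of SW1736 wt, the signs of STAT2 (0.91) and CD274 (-2.67) were those of 8505C. Both pairs then share 8505C wt, so this swap cannot say which wt library the opposite sign rests on. For CD274, 8505C wt (70.1 FPKM) was the library furthest from the others.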

How the results depend on the processing

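The 9 class I pathway genes kept the sign of their change in the 6 alternatives for SW1736 and the 5 for 8505C that can change a fold (both pseudocounts, TPM, centring, coverage and, in SW1736, the wt library), with TAP2 below 0 in each. With both thresholds added they stayed on their side of the limit in 67 of 72 cases in SW1736 and 58 of 63 in 8505C. The minimum and the choice of rows cannot change the fold of a gene that is kept. The SW1736 median was 1.00 when both libraries had to exceed 0.5 FPKM, 1.16 on TPM and 1.39 with 8505C wt as the wt library, and the 8505C median was 1.19 when centred on the median of all genes. At a threshold of 2, 2 pathway genes were higher in SW1736 and 0 lower in 8505C, and at a threshold of 1, 6 were higher in 8505C. The median absolute difference between the wt libraries was 0.51 with a pseudocount of 1 and 0.60 when both had to exceed 0.5 FPKM.

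For the 5 lists together, the number higher in SW1736 was 16 at a threshold of 1, 6 at a threshold of 2 and 6 when both libraries had to exceed 0.5 FPKM, and the number lower was 2 at a threshold of 2, 3 with a pseudocount of 1 and 3 with 8505C wt. In 8505C, 5 were higher in each of the settings with a pseudocount of 1, a threshold of 2 and both libraries above 0.5 FPKM, and 1 was lower with a pseudocount of 1 and 3 at a threshold of 2. The named list genes stayed on their side in 206 of 231 such cases in SW1736 and 177 of 196 in 8505C. With 8505C wt, CD274 in SW1736 turned to -2.67, past the limit, and the uncalled STAT2, EZH2 and PSMB6 turned to 0.91, 0.94 and -0.13, while IFNGR2 in 8505C turned to -0.07 when centred. The cause of these shifts was not tested. With 1 library per condition there are no replicates to pair or to leave out, and a fit with the cell lines as pairs, which would leave 1 residual degree of freedom, was not run. Depth limits HLA-F in 8505C wt (about 58 reads), and the spread between cultures is unknown.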

Other observations

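Class II genes of the same stretch of chromosome 6, looked at after their values were seen, were near 0 in the wt libraries and low in the PTX libraries, except HLA-DOB, which read between 0.604 and 1.26 FPKM in all 4. Of 15 class II names, 4 were compared in SW1736, with 3 called higher, beside 15.7% of all genes, and 5 in 8505C, with 4 called higher, beside 15.0%. Each gene called was above 0.5 FPKM in the PTX library only. With a wt level near 0, passing that minimum by itself all but fixed the call, so these counts are not a result. HLA-DOB, above the minimum in both libraries of each line, was not called (log2 0.16 in SW1736 and 0.21 in 8505C). HLA-DPA1, a chain that presents peptide to CD4+ T cells, was listed at 0 in wt and read 2.25 FPKM in PTX cells of SW1736, and went from 0.0679 to 3.61 FPKM in 8505C, and SW1736-PTX was also higher than 8505C wt (log2 3.81). HLA-DMA, part of the editor that loads class II chains, went from 0.0729 to 1.97 FPKM in the SW1736 pair and from 0.323 to 8.53 in 8505C, with a log2 change of 2.29 for SW1736-PTX over 8505C wt. HLA-DRA, the constant chain of HLA-DR, was listed at 0 in all 4 libraries.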
